A study of Homo sapiens with 18 samples.

Results

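The BCL2 family of apoptosis regulators was examined in MDA-MB-231 cells, a human triple-negative breast cancer line, exposed to hypoxia and to 2 chemotherapeutic drugs. The members were the 10 genes BCL2, BCL2L1, MCL1, BCL2A1, BAX, BAK1, BID, BCL2L11, PMAIP1 and BBC3, found by gene symbol among the probe sets of an Affymetrix HG-U133 Plus 2.0 array. A probe set, the unit of measurement, is a group of short probes designed against 1 transcript. Of 54613 probe sets, 30 carried the symbol of a single member, and they covered 9 of the 10 genes. The only probe set of BBC3, 211692_s_at, was also annotated to the microRNAs MIR3190 and MIR3191 and was left out.

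All cells were incubated for 16 hours in serum-free, CO2-independent medium. H epi and N epi cells received 10 µM epirubicin at 1% and 20% oxygen, H tax and N tax cells received 50 µM paclitaxel at 1% and 20% oxygen, and H and N cells received no drug at 1% and 20% oxygen. Each of these 6 conditions had 2 arrays, hence 12 arrays in all. Another 6 arrays had a title and a source name that gave different drugs, and they were assigned to no condition.

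Proteins of this family decide whether the outer mitochondrial membrane is opened during apoptosis. BCL2, BCL2L1 (BCL-XL), MCL1 and BCL2A1 protect the membrane. BAX and BAK1 form the pores through which cytochrome c escapes. The BH3-only proteins BID, BCL2L11 (BIM), PMAIP1 (NOXA) and BBC3 (PUMA) bind the protectors or trigger the pore formers, and NOXA binds MCL1 preferentially. Paclitaxel stabilises microtubules and arrests cells in mitosis, and epirubicin is an anthracycline that inhibits topoisomerase II. The comparisons ask whether transcripts of the family moved with either drug, and whether hypoxia, which can protect tumour cells from drug-induced death, moved them too.

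Promoter sequences from RefSeq (GRCh38.p14) were searched on both strands, over the 250 bases before each listed transcript start. Some of these starts lie inside the gene. The motifs were the HIF response element core (ACGTG), a CRE half-site (TGACG), to which ATF family factors bind, and a FOXO site (GTAAACA). There were 14 windows for 9 of the 10 members, and none for MCL1. The searched letters were found in 4, 4 and 1 of the windows, in the order just given. The CRE half-site was in windows of BAX, BCL2, BCL2L1 and PMAIP1, the HIF core in windows of BAX, BBC3 and BID, and the FOXO site in that of BCL2L11. BID and BCL2L1 had more than 1 window each. The BID windows with the HIF core lie inside the gene, overlap and hold the same site, which was counted in each. A single example of each motif is shown, with its letters in capitals: PMAIP1 for the CRE half-site, BCL2L11 for the FOXO site and BAX, with the most matches, for the HIF core. In PMAIP1 (chr18:59899746-59899995, plus strand) the CRE half-site read CGTCA, the reverse complement, and began 55 bases before the gene start. In BCL2L11 (chr2:111120664-111120913, plus strand) the FOXO site began 223 bases before the start. In BAX (chr19:48954625-48954874, plus strand) the HIF core matched at 5 places, 4 of them the palindrome CACGTG, which counts on both strands, giving 9 matches. The first palindrome of BAX overlaps a TGACG.
PMAIP1: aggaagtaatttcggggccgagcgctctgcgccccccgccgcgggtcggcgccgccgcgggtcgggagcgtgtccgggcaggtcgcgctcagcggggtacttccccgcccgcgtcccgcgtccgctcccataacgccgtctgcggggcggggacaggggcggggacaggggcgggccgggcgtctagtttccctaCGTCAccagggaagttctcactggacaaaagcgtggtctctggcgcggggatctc
BCL2L11: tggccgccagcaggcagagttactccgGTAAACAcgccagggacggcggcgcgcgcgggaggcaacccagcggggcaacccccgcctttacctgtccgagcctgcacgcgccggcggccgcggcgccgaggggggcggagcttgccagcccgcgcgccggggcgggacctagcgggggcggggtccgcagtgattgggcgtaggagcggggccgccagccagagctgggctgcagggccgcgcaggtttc
BAX: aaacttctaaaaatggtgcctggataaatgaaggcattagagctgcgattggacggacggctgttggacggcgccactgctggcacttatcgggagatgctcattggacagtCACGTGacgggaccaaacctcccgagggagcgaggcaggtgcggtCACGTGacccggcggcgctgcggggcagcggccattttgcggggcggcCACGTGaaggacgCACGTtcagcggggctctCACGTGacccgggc
Among 35116 promoter windows of this length, 18.5% held the HIF core, 21.2% the CRE half-site and 2.98% the FOXO site. A match of letters is a description only, and binding was not measured.

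Values are log2 signals after GC-RMA, a normalisation that corrects each probe for its base composition. A probe set counted as present on an array above a log2 signal of 3.14, and it was tested when both arrays of at least 1 condition passed this level. Of the 30 member probe sets, 24 were tested, for 8 genes. The 6 others were present on 0 of the 12 arrays. They included the only probe set of BCL2A1, 205681_at, which lay between 2.23 and 2.64, together with 2 probe sets of BCL2, 2 of BCL2L11 and 1 of MCL1. A change of 1 in log2 signal is a doubling. Calls are from limma fitted to all 24151 tested probe sets, with an adjusted p under 0.05. With 2 arrays per condition the p-values measure only the spread between these arrays.

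The defining markers VIM, CD44 and EGFR were present on all 12 arrays, whereas PGR and CDH1 were present on 0 and ESR1 on 1. PTPRC and ALB, markers of leukocytes and hepatocytes, were present on 0 arrays. GATA3 and PECAM1, listed as genes this line should lack or hold at a low level, were present on all 12, with signals of 4.71 to 8.79 and 3.78 to 7.07. PECAM1 fell in all 4 comparisons of a drug with untreated cells, and GATA3 in both comparisons of epirubicin. The part of GATA3 and PECAM1 in the results was not tested. The epirubicin arrays had lower medians over the tested probe sets (6.73 to 7.17) than the arrays of the other conditions (7.36 to 7.46). The 2 N epi arrays agreed least, with a 95th percentile of the difference of 1.44 and a correlation of 0.976, against 0.49 to 0.97 and 0.990 to 0.996 for the other conditions. MCL1 was among the probe sets that differed, and its N epi values are given with and without each of these arrays.

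MCL1 transcripts fell with epirubicin at both oxygen levels. On the probe set with the highest mean, 200797_s_at, the log2 signal was 6.31 and 6.80 on the H epi arrays and 6.88 and 11.05 on the N epi arrays. It was 13.72 and 13.52 in H tax cells, 13.40 and 13.30 in N tax cells, 13.15 and 12.74 in H cells and 12.47 and 12.85 in N cells. Thus all 4 epirubicin arrays lay below all 8 others, but N epi replicate 2 lay 4.17 above replicate 1. In hypoxia the change was -6.39 ± 1.05 (SE, adjusted p = 0.00084, n = 2 arrays per condition), which is 83.7-fold lower in H epi than in H cells. In normoxia it was -3.70 ± 1.05 (adjusted p = 0.0176), or 13.0-fold lower in N epi than in N cells. In a bulk sample, fewer cells with the transcript and less transcript per cell cannot be told apart.

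The other 4 tested MCL1 probe sets fell as well. Probe set 200798_x_at gave 5.68 and 5.73 in H epi and 6.06 and 10.95 in N epi cells, against 12.15 and 11.96 in H and 11.92 and 12.41 in N cells. For 200796_s_at the values were 3.27 and 3.74 in H epi and 2.55 and 6.97 in N epi cells, against 8.66 and 8.41 in H and 8.32 and 8.83 in N cells. All 5 probe sets were called lower in both comparisons with untreated cells, with changes of -2.39 to -6.39 in hypoxia and of -1.58 to -3.82 in normoxia. They were also lower in H epi than in H tax cells (-2.38 to -7.48) and in N epi than in N tax cells (-1.87 to -4.91, against -1.57 to -2.70 without N epi replicate 1 and -2.17 to -7.16 without N epi replicate 2). These comparisons share the epirubicin arrays and are not independent of each other.

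The size of the MCL1 change in normoxia depended on a single array: over the 5 probe sets, N epi minus N was -1.12 to -1.61 without N epi replicate 1 and -1.88 to -6.11 without N epi replicate 2. Without N epi replicate 2, the change of 200797_s_at was -5.78 (adjusted p = 4.74e-06), and without N epi replicate 1 it was -1.61 (adjusted p = 0.0032). With a single N array this probe set was no longer past the test (adjusted p = 0.06 without N replicate 1 and 0.0825 without N replicate 2), and nor were 200796_s_at (0.0617 and 0.0918), 200798_x_at (0.0911 and 0.131) and 214056_at (0.0808 and 0.0806, and 0.0784 without N epi replicate 1). The same N epi array decided the comparison of the oxygen levels under epirubicin. On 200797_s_at the H epi minus N epi change was -2.40 ± 1.05 and did not pass (adjusted p = 0.302). Without N epi replicate 1 this difference was -4.49 (adjusted p = 5.89e-05), and without N epi replicate 2 it was -0.32 (adjusted p = 0.802).

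**Figure D1:**
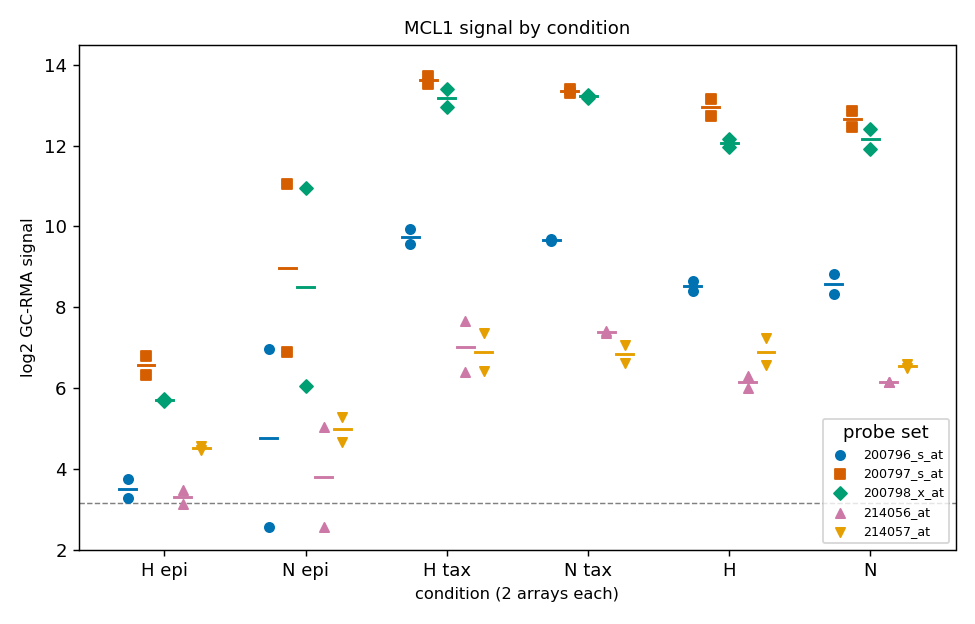
log2 GC-RMA signal of the 5 tested MCL1 probe sets (y axis) on each array of the 6 conditions (x axis, 2 arrays each). Points are arrays, short lines are condition means, and the dashed line is the presence level of 3.14. The epirubicin arrays lie lowest in every probe set, and the N epi points of 200797_s_at stand apart at 6.88 and 11.05.

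MCL1 signals were higher on the paclitaxel arrays than on the untreated ones in most probe sets, without passing the test. On 200796_s_at the values were 9.94 and 9.55 in H tax and 9.70 and 9.64 in N tax cells. These arrays did not overlap with the untreated ones, and the change was 1.21 ± 1.11 in hypoxia (adjusted p = 0.474) and 1.09 ± 1.11 in normoxia (adjusted p = 0.551). The N epi pair enters the spread of the shared fit. With N epi replicate 2 left out of the whole fit, the changes of 200796_s_at were the same, 1.21 and 1.09. Tests from that fit are not given here, because it leaves a single N epi array. Over the 5 tested probe sets the change was -0.009 to 1.21 in H tax against H and 0.29 to 1.24 in N tax against N cells. In the fit of all 12 arrays 0 of the 5 passed in either comparison.

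PMAIP1 was the member that rose most with paclitaxel. Probe set 204285_s_at read 12.19 and 12.16 in H tax and 12.13 and 12.50 in N tax cells, against 9.58 and 9.80 in H and 9.67 and 9.97 in N cells. The rise was 2.48 ± 0.24 in hypoxia (adjusted p = 0.000256) and 2.49 ± 0.24 in normoxia (adjusted p = 0.00044), 5.57-fold and 5.63-fold. The second probe set, 204286_s_at, read 11.76 and 11.14 in H tax and 11.69 and 11.62 in N tax cells, against 9.34 and 9.33 in H and 9.48 and 9.73 in N cells. It rose by 2.11 and 2.05 (adjusted p = 0.000425 and 0.000775). All 4 paclitaxel arrays lay above the 4 untreated arrays on both probe sets.

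With epirubicin, PMAIP1 stayed near the untreated level. The 204285_s_at signal was 9.73 and 9.49 in H epi and 9.53 and 10.21 in N epi cells, overlapping the untreated arrays at both oxygen levels. The change was -0.08 (95% interval -0.63 to 0.46) in hypoxia and 0.05 (-0.50 to 0.59) in normoxia. The epirubicin cells were thus below the paclitaxel cells, by -2.56 in H epi against H tax and -2.45 in N epi against N tax (adjusted p = 3.56e-05 and 7.99e-05). The result near 0 depends on the scaling: centring each array on its median gave 204286_s_at a rise of 0.62 in hypoxia (adjusted p = 0.0214) and 0.54 in normoxia (adjusted p = 0.0431).

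BCL2L1, the second protector that was well measured, fell with epirubicin on 3 of its 4 probe sets at both oxygen levels. The brightest, 212312_at, read 11.07 and 10.62 in H epi and 10.98 and 11.17 in N epi cells, against 12.78 and 12.65 in H and 12.85 and 12.78 in N cells. The change was -1.87 ± 0.16 in hypoxia (adjusted p = 3.19e-05) and -1.74 ± 0.16 in normoxia (adjusted p = 0.000111). Probe sets 206665_s_at and 215037_s_at changed by -2.02 and -2.01 in hypoxia and by -1.90 and -2.18 in normoxia. In each of these 3 probe sets the 4 epirubicin arrays lay below the 8 others.

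The fourth BCL2L1 probe set, 231228_at, was dim and behaved otherwise. It read 4.02 and 4.18 in H epi, 4.02 and 4.0 in N epi, 4.02 and 4.02 in H tax, 4.02 and 3.96 in N tax, 4.08 and 4.02 in H and 4.33 and 4.60 in N cells. The values are flat except in N cells, and it was called lower in N epi against N (-0.46, adjusted p = 0.0119) and in N tax against N (-0.48, adjusted p = 0.0219). Without N replicate 2 neither was called (adjusted p = 0.0873 and 0.136), and the second was not called without N tax replicate 1 or 2 either (adjusted p = 0.071 and 0.0999). With median centring it was 0.59 higher in H epi than in H cells (adjusted p = 0.0143).

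With paclitaxel, 2 of the 4 BCL2L1 probe sets passed in normoxia. Probe set 212312_at was lower in N tax (12.28 and 12.33) than in N cells (12.85 and 12.78) by -0.52 (adjusted p = 0.0462), and the other was the dim 231228_at. This call was lost when any of the 4 N tax and N arrays was left out (adjusted p = 0.13 to 0.193). In H tax against H cells 0 of the 4 probe sets passed.

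BCL2 itself was near the presence level. Its 2 tested probe sets differed in opposite directions with epirubicin, so no direction is given for the gene. Probe set 203685_at read 3.23 and 3.05 in H epi and 3.0 and 3.22 in N epi cells, against 3.84 and 3.59 in H and 4.12 and 3.83 in N cells. It was also low with paclitaxel, at 3.20 and 2.97 in H tax and 3.08 and 3.22 in N tax cells. The 8 drug arrays lay below the 4 untreated ones, and 1 array of each drug condition was below the presence level. The differences were -0.58 (H epi), -0.87 (N epi), -0.63 (H tax) and -0.82 (N tax). This probe set was tested only because it was present on both arrays of the untreated conditions. Hence no test is given for it, and the order of its arrays is a description only. With median centring the H epi difference was -0.04.

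On the other BCL2 probe set, 207004_at, the signal was 5.03 and 5.66 in H epi and 5.36 and 4.96 in N epi cells, against 4.38 and 4.38 in H and 4.28 and 4.27 in N cells. The rise was 0.97 ± 0.21 in hypoxia (adjusted p = 0.00381) and 0.89 ± 0.21 in normoxia (adjusted p = 0.00809), the second lost without N epi replicate 1 (adjusted p = 0.0523). The paclitaxel arrays lay between 4.38 and 4.63 and did not pass.

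The pore formers BAX and BAK1 went opposite ways with epirubicin. BAX 208478_s_at read 8.87 and 8.77 in H epi and 8.68 and 8.37 in N epi cells, against 8.04 and 7.84 in H and 8.07 and 7.92 in N cells. It was higher by 0.88 ± 0.17 in hypoxia (adjusted p = 0.00232) and by 0.53 ± 0.17 in normoxia (adjusted p = 0.0322). The normoxic call was lost without N epi replicate 1, N replicate 1 or N replicate 2 (adjusted p = 0.176, 0.0682 and 0.152). BAX 211833_s_at, with 10.42 and 10.01 in H epi and 10.21 and 9.83 in N epi cells, against 9.13 and 9.10 in H and 9.63 and 9.35 in N cells, passed in hypoxia (1.10, adjusted p = 0.00445) and not in normoxia (0.53, adjusted p = 0.103).

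BAK1 was measured by 1 probe set, 203728_at. It read 6.20 and 6.24 in H epi and 6.44 and 6.81 in N epi cells, against 7.06 and 7.06 in H and 7.88 and 7.81 in N cells. It was lower by -0.84 ± 0.21 in hypoxia (adjusted p = 0.00748) and by -1.22 ± 0.21 in normoxia (adjusted p = 0.00181). The fall in hypoxia was not called after quantile normalisation (-0.20, adjusted p = 0.42) or median centring (-0.30, adjusted p = 0.22).

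With paclitaxel, 1 BAX probe set and BAK1 passed in H tax against H cells. BAX 208478_s_at was lower in H tax (7.5 and 7.06) than in H cells by -0.66 (adjusted p = 0.022), a call lost without H tax replicate 2, H replicate 1 or H replicate 2 (adjusted p = 0.121, 0.126 and 0.0502). BAK1 was higher in H tax (7.47 and 8.14) than in H cells by 0.75 (adjusted p = 0.0269), lost without the same 3 arrays (adjusted p = 0.117, 0.104 and 0.104). In N tax cells BAX 208478_s_at (7.86 and 7.86) and BAK1 (8.07 and 8.02) did not pass against N cells. The difference between the oxygen levels itself did not pass either (adjusted p = 0.754 for BAK1 and 0.674 for BAX 208478_s_at).

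BID, which is cleaved by caspases to link death receptors with mitochondria, fell with paclitaxel on all 3 probe sets and rose with epirubicin in normoxia. Probe set 211725_s_at read 8.26 and 8.68 in H tax and 8.10 and 8.54 in N tax cells, against 9.67 and 9.89 in H and 9.24 and 9.28 in N cells. It fell by 1.31 ± 0.19 in hypoxia (adjusted p = 0.00166), and the change was -0.94 ± 0.19 in normoxia (adjusted p = 0.0106). For 204493_at the values were 6.91 and 7.55 in H tax and 6.64 and 7.16 in N tax cells, against 8.27 and 8.86 in H and 7.81 and 7.81 in N cells. Across the 3 probe sets the change was -1.02 to -1.33 in hypoxia and -0.72 to -0.94 in normoxia. Each of the 3 normoxic calls was lost without N replicate 1 (adjusted p = 0.0601 to 0.176) and without N tax replicate 1 (adjusted p = 0.0688 to 0.26), and the hypoxic call of 204493_at without H tax replicate 1 or H replicate 2 (adjusted p = 0.0532 and 0.0623).

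With epirubicin the BID signal of 211725_s_at was 10.31 and 10.04 in H epi and 10.04 and 10.02 in N epi cells. It was higher than in N cells by 0.77 ± 0.19 (adjusted p = 0.0107), and the other 2 probe sets rose by 0.85 and 0.92. 2 of these calls depended on single arrays: 211725_s_at was lost without N replicate 1 (adjusted p = 0.0536), and 204493_at without N epi replicate 1, N replicate 1 or N replicate 2 (adjusted p = 0.124, 0.0893 and 0.0901). In H epi against H cells the changes were 0.27 to 0.39 and 0 of 3 passed, although all 3 passed after median centring (0.81 to 0.93). Between the drugs, all 3 probe sets were higher with epirubicin, by 1.30 to 1.71 in H epi against H tax and by 1.58 to 1.83 in N epi against N tax cells. On each probe set the 4 epirubicin arrays lay above the 4 paclitaxel arrays.

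**Figure D2:**
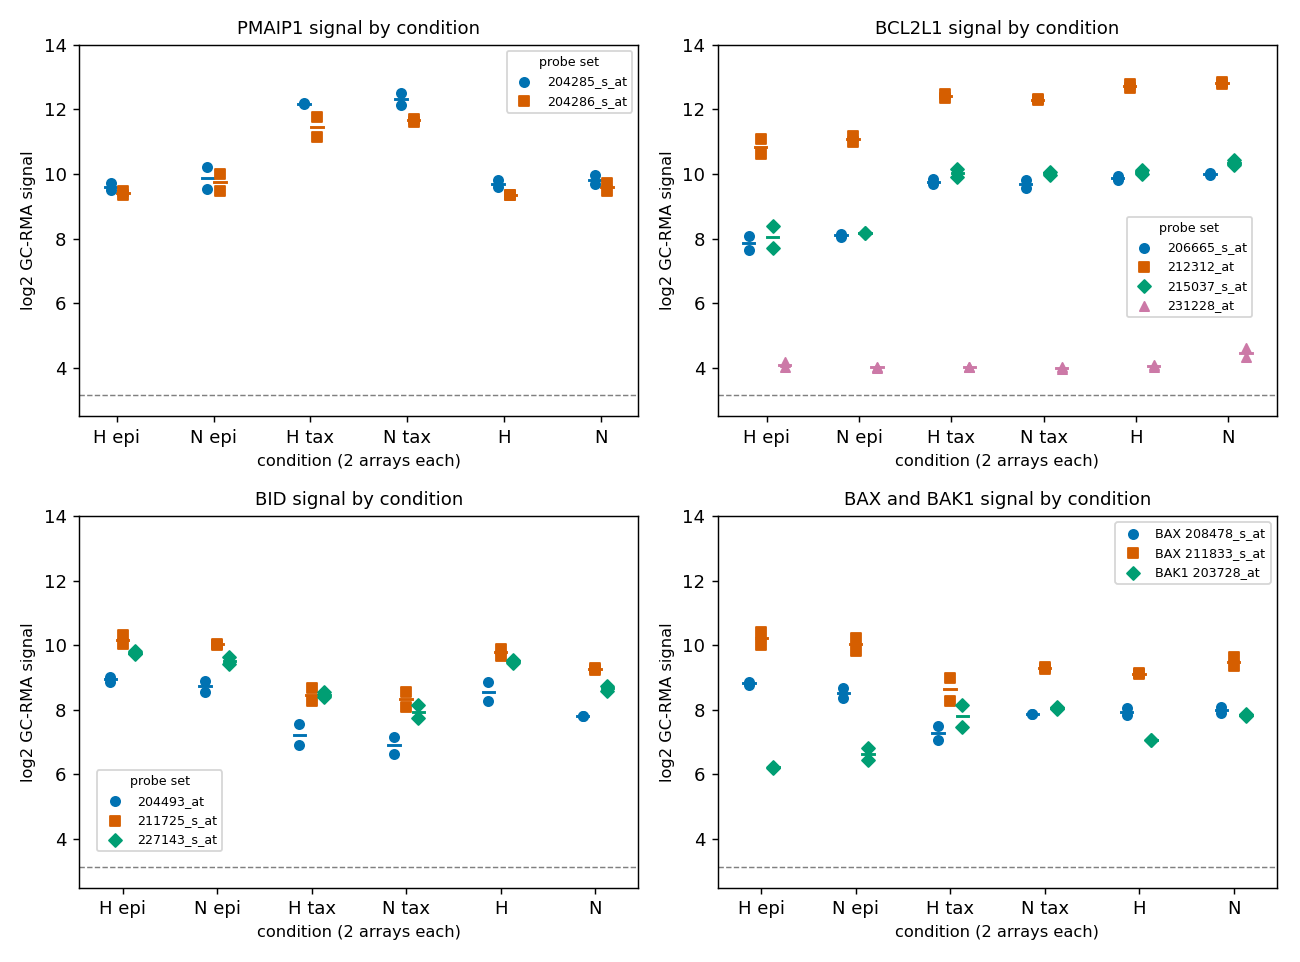
log2 GC-RMA signal (y axes) of PMAIP1, BCL2L1, BID, BAX and BAK1 probe sets on each array of the 6 conditions (x axes, 2 arrays each). Points are arrays, short lines are condition means and the dashed line is the presence level of 3.14. PMAIP1 is highest with paclitaxel (12.13 to 12.50 on 204285_s_at), BCL2L1 lowest with epirubicin (10.62 to 11.17 on 212312_at), and BID lies between 8.10 and 8.68 with paclitaxel on 211725_s_at.

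BCL2L11, whose BIM protein binds all the protectors, had 5 tested probe sets that did not move together. Probe set 225606_at read 2.67 and 3.67 in H epi and 3.99 and 6.64 in N epi cells, against 6.07 and 6.81 in H and 7.28 and 7.27 in N cells. It was lower in H epi than in H cells by -3.27 ± 0.73 (adjusted p = 0.00433). In normoxia the change was -1.96 ± 0.73 and missed the threshold (adjusted p = 0.0505). Its size depended on which N epi array was kept: -3.29 without N epi replicate 2 and -0.64 without N epi replicate 1. Values with paclitaxel were 7.85 and 7.55 in H tax and 7.86 and 7.69 in N tax cells, and the H epi minus H tax change was -4.53. Probe set 1558143_a_at read 4.69 and 6.22 in H epi and 4.95 and 6.69 in N epi cells, against 6.09 and 6.42 in H and 7.04 and 6.87 in N cells. For it neither comparison of epirubicin with untreated cells passed, and the arrays of each epirubicin pair lay far apart. In N epi against N cells its change was -1.13 (adjusted p = 0.164), but -2.01 (adjusted p = 0.0251) without N epi replicate 2 and -0.26 without N epi replicate 1.

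Other BCL2L11 probe sets were flat or higher. Probe set 1553096_s_at read 5.49 and 6.25 in N epi cells, against 4.93 and 5.33 in N cells, and was called higher by 0.74 (adjusted p = 0.0339), a call lost without N epi replicate 2 or N replicate 1 (adjusted p = 0.183 and 0.19). Probe sets 222343_at and 1555372_at were tested only because they were present on both arrays of a paclitaxel condition, so no test is given for their difference from other cells. On 222343_at the values were 3.67 and 4.22 in N tax and 3.47 and 2.97 in H tax cells. They were 2.82 and 3.0 in N and 2.65 and 2.74 in H cells, below the presence level. The unassigned array titled N tax read 2.77. On 1555372_at they were 2.96 and 4.37 in N tax cells, against 2.40 and 2.54 in N cells, present on only 1 of these 4 arrays. Which BCL2L11 transcripts each probe set reads was not analysed here.

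**Figure D3:**
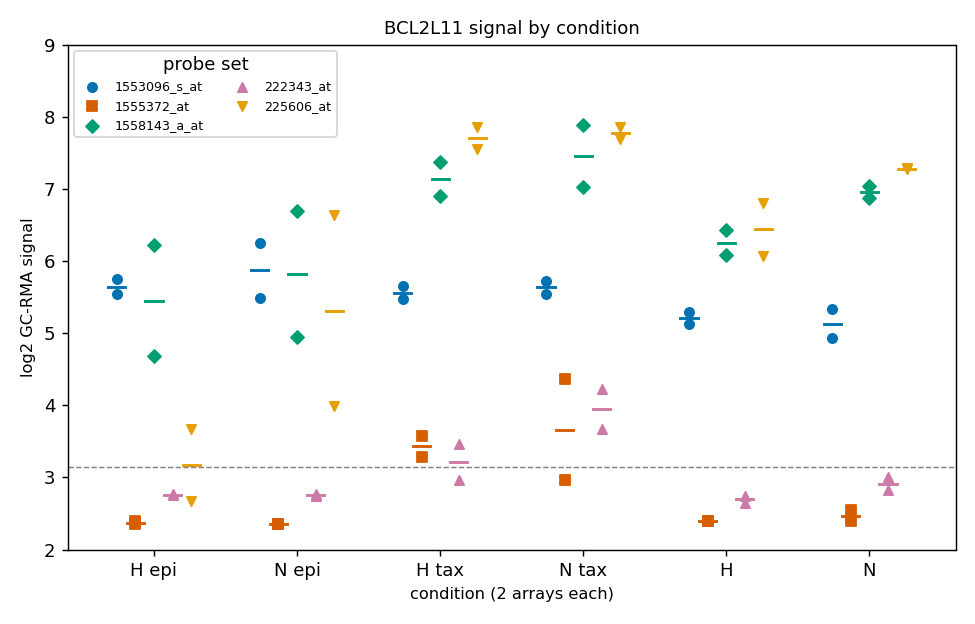
log2 GC-RMA signal of the 5 tested BCL2L11 probe sets (y axis) on each array of the 6 conditions (x axis, 2 arrays each). Points are arrays, short lines are condition means and the dashed line is the presence level of 3.14. Probe set 225606_at is lowest with epirubicin (2.67 to 6.64), whereas 1553096_s_at stays between 4.93 and 6.25 on all arrays.

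Counts over the family follow, with the share over all tested probe sets beside each. In N epi against N cells 6 of the 24 tested probe sets were higher and 11 lower, 70.8% in all, against 52.6% of all tested probe sets (24.7% higher and 27.8% lower). Counts without N epi replicate 2 are not given, because that fit has a single N epi array. In H epi against H cells 3 were higher and 11 lower, 58.3% against a background of 63.5% (30.9% higher and 32.5% lower). The median size of the change was 0.90 in normoxia and 0.86 in hypoxia, against 0.57 and 0.74 over all tested probe sets. Of the 11 lower calls in hypoxia, 5 were MCL1 and 3 BCL2L1 probe sets, and probe sets of 1 gene are not independent.

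For paclitaxel, 4 were higher and 6 lower in N tax against N cells (41.7%, background 23.3%, of which 9.49% higher and 13.8% lower), and 3 were higher and 5 lower in H tax against H cells (33.3%, background 30%, of which 13% higher and 17% lower). Probe sets 203685_at, 222343_at and 1555372_at are in these counts although they were present on both arrays in 1 treatment only. Over the other 21, 2 were higher and 5 lower in normoxia and 3 higher and 4 lower in hypoxia with paclitaxel, and 6 higher and 10 lower in normoxia and 3 higher and 10 lower in hypoxia with epirubicin. Leaving N epi replicate 2 out of the whole fit altered the spread behind the paclitaxel calls but not the paclitaxel changes, and counts from that fit are not given. Between the drugs, 6 were higher and 15 lower in N epi against N tax cells (87.5%, background 61.9%, of which 30.3% higher and 31.7% lower), and 6 were higher and 14 lower in H epi against H tax cells (83.3%, background 68.2%, of which 33.9% higher and 34.3% lower). The epirubicin comparisons depend on scaling. With median centring the family had 10 higher and 9 lower calls in H epi against H, and 8 higher and 10 lower in N epi against N cells, and after quantile normalisation 5 and 9, and 6 and 10. Centring each array on its median raised all probe sets by 0.41 in N epi against N and by 0.54 in H epi against H cells, and the share of higher calls among all called probe sets was then 69.3% in place of 47.1% and 69.6% in place of 48.8%. Against the paclitaxel cells this share was 65% in place of 48.9% in normoxia and 67.5% in place of 49.7% in hypoxia.

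**Figure D4:**
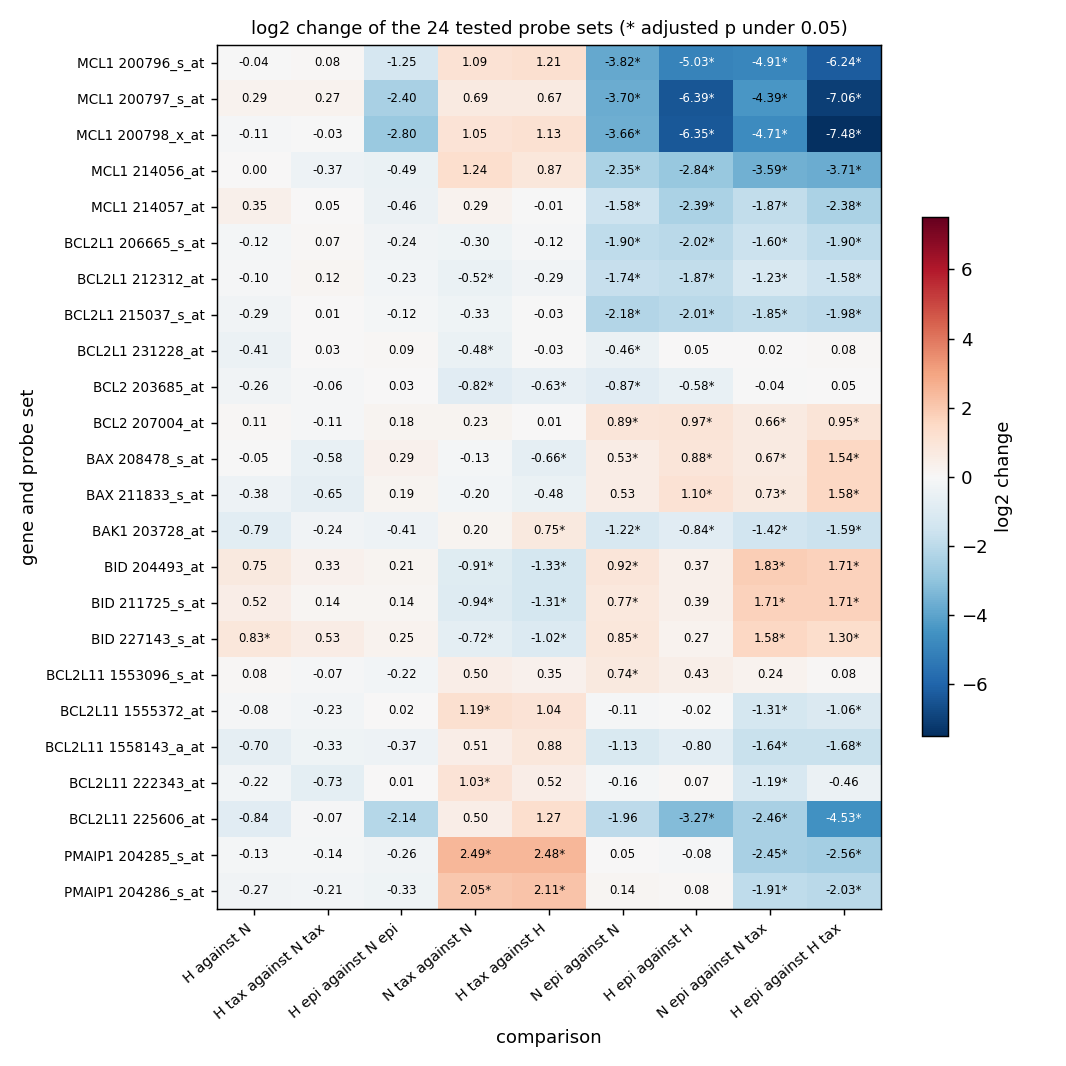
log2 change of the 24 tested probe sets (rows) in 9 comparisons (columns), coloured on a common scale from blue (lower) to red (higher). A star marks an adjusted p under 0.05, and the strongest blue is MCL1 200798_x_at in H epi against H tax cells (-7.48).

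Hypoxia without drug was followed by 1 call in the family, too small a number to set its share apart from the background. At an unadjusted p under 0.05 there were 5 of 24 member probe sets in H against N cells, against 5724 of all 24151. With the unassigned arrays placed by their titles, 5 of 24 were called, against 4969 of 24151. In H against N cells 1 of 24 probe sets was called (4.17%), against a background of 9.51% (4.41% higher and 5.11% lower). This was BID 227143_s_at, with 9.53 and 9.46 in H cells and 8.74 and 8.59 in N cells, higher by 0.83 ± 0.15 (adjusted p = 0.0145). The other BID probe sets were higher by 0.75 and 0.52 and did not pass (adjusted p = 0.145 each). Leaving out any of the 4 arrays lost the call (adjusted p = 0.0531 without H replicate 2, 0.102 without H replicate 1, 0.0605 without N replicate 1 and 0.111 without N replicate 2). BAK1 was lower in H than in N cells by -0.79 and just missed the threshold (adjusted p = 0.0514), and it passed after quantile normalisation (adjusted p = 0.0486).

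In H tax against N tax cells limma called 0 of 24 (4 at an unadjusted p under 0.05), against a background of 1.33%, and in H epi against N epi cells 0 of 24 (3 unadjusted), against 1.52%. The changes lay between -0.73 and 0.53 for H tax minus N tax, and between -2.80 and 0.29 for H epi minus N epi. For the PMAIP1 probe set 204285_s_at, H tax minus N tax was -0.14 with a 95% interval of -0.69 to 0.40, so a hypoxic change of the size of its paclitaxel response lies outside the interval. For MCL1 200797_s_at the H epi minus N epi interval is far wider. The H epi minus N epi change of MCL1 200797_s_at was -4.49 without N epi replicate 1 and -0.32 without N epi replicate 2. When the hypoxia effects were compared with each other, limma called 0 of 24 for paclitaxel against no drug (1 unadjusted, background 0.12%), for epirubicin against no drug (2 unadjusted, background 3.96%) and for epirubicin against paclitaxel (3 unadjusted, background 0.82%). For MCL1 200797_s_at the last pair of differences was -2.69 and -2.67. It was -4.78 and -4.76 without N epi replicate 1, and -0.61 and -0.59 without N epi replicate 2.

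Other genes of the family and its surroundings were counted on the brightest probe set of each gene. Of 13 further BCL2 family genes 9 were tested. In H against N cells 2 rose and 1 fell (background 9.51%): BNIP3 by 2.45 and BNIP3L by 2.35, both mitophagy receptors and known hypoxia targets, and BCL2L2 (BCL-W, a protector) by -0.69. In H tax against N tax cells BNIP3 and BNIP3L rose by 2.26 and 1.65, whereas in H epi against N epi cells they differed by 0.06 and 0.12 and 0 of 9 passed. With paclitaxel 2 of the 9 rose and 1, BNIP3L, fell in H tax against H cells (background 30%). In N tax against N cells 2 rose and 0 fell (background 23.3%). Both times the risers were BCL2L2 (1.64 and 1.08) and BCL2L13 (1.02 and 0.58). With epirubicin 3 rose and 3 fell in H epi against H cells, and 4 rose and 1 fell in N epi against N cells. The background was 63.5% and 52.6%. BAD, a BH3-only gene, rose by 0.93 and 0.62, and BCL2L2 was also higher in H epi than in H cells. Some of these calls rested on single arrays: BCL2L2 in H against N was lost without N replicate 1, N replicate 2 or H replicate 2 (adjusted p = 0.0592, 0.109 and 0.0699), and BNIP3L in H tax against N tax without N tax replicate 2 (0.0601). BCL2L13 in N tax against N was lost without any 1 of its 4 arrays (0.0605 to 0.108), and BAD in N epi against N without N epi replicate 1 or N replicate 2 (0.0838 and 0.0824).

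Among mitochondrial death effectors 10 of 12 listed genes were tested. With epirubicin 2 rose and 4 fell in H epi against H cells, and 2 rose and 2 fell in N epi against N cells, beside 63.5% and 52.6% of all tested probe sets. APAF1, the scaffold of the apoptosome, fell in these comparisons (-2.40 and -1.09), and CYCS, cytochrome c, rose by 0.70 and 0.40. With paclitaxel, 1 rose and 3 fell in H tax against H cells and 0 rose and 3 fell in N tax against N cells (background 30% and 23.3%), among them ENDOG, a mitochondrial nuclease (-1.58 and -1.13). In H against N cells CYCS fell by 0.37 and the other 9 did not pass. The CYCS call was lost without any 1 of the 4 arrays (adjusted p = 0.0962 to 0.247), APAF1 in N epi against N without N epi replicate 1, N replicate 1 or N replicate 2 (0.13, 0.0772 and 0.106), and ENDOG in N tax against N without N replicate 1 or N tax replicate 2 (0.0667 and 0.056).

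Of 10 genes for the turnover of the MCL1 and NOXA proteins 8 were tested. With epirubicin 1 rose and 3 fell at each oxygen level, USP13 among those that fell in normoxia. The background was 63.5% in hypoxia and 52.6% in normoxia. FBXW7 and BTRC, which encode receptor subunits of ubiquitin ligases that act on MCL1, fell with epirubicin, by -2.0 and -2.65 in H epi against H and by -1.70 and -1.98 in N epi against N cells. UBE2F, a NEDD8-conjugating enzyme linked to NOXA turnover, rose by 1.5 and 0.96. With paclitaxel FBXW7 rose by 0.67 and 0.89, and CUL5, the cullin that UBE2F modifies, fell (-0.85 and -0.53), in hypoxia and in normoxia. The other genes of this list did not pass with paclitaxel. FBXW7 was not called without H replicate 1 or H tax replicate 2 in hypoxia (adjusted p = 0.0998 and 0.0858) or without N replicate 1 in normoxia (0.0543), and CUL5 in normoxia was not called without N replicate 1 or N tax replicate 2 (0.0678 and 0.0552).

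Transcription factors that act on BH3-only genes were tested for 9 of 12 listed genes. With paclitaxel 3 of the 9 rose and 1 fell at each oxygen level, beside a background of 30% in hypoxia and 23.3% in normoxia. ATF3 rose by 3.91 in H tax against H and by 3.77 in N tax against N cells, DDIT3 (CHOP) by 3.56 and 3.83, and ATF4 by 1.39 and 1.45, all of them factors of the integrated stress response. E2F1, a cell cycle factor, changed by -1.91 and -2.32. With epirubicin FOXO3 (-7.08), MYC (-6.57), JUN (-6.39) and CEBPB (-4.03) fell in H epi against H cells, where 0 rose and 5 fell (background 63.5%). In N epi against N cells FOXO3 (-3.65), MYC (-3.66) and JUN (-3.47) fell, and ATF3 rose by 2.29. Between H and N, H tax and N tax, and H epi and N epi cells 0 of 9 passed. With 1 array left out, DDIT3 was lost in each case (adjusted p = 0.0569 to 0.133 in hypoxia and 0.081 to 0.121 in normoxia), and E2F1 without N replicate 1 or 2, H replicate 1 or 2 or H tax replicate 1 (0.063, 0.0716, 0.0638, 0.112 and 0.127). Single arrays also decided ATF4 in N tax against N (0.0566 without N replicate 2), CEBPB in H epi against H (0.0509 without H replicate 1) and, in N epi against N, FOXO3 (0.0567 without N replicate 1), MYC (0.0521 and 0.0752 without N replicate 1 and 2) and ATF3 (0.0699 without N replicate 1).

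The 3 members with the widest range of condition means on their brightest probe set were set beside 11196 other named genes, by the root-mean-square difference of the centred log2 profile over the 6 condition means. Nearest to MCL1 200797_s_at were MYC (0.211), FOXO3 (0.211) and ETV3 (0.233). MYC averaged 5.08 in H epi and 7.88 in N epi cells, against 11.65 in H and 11.55 in N cells. Nearest to PMAIP1 204285_s_at were ISG15 (0.111), GABARAPL1 (0.115) and ASNS (0.131), and nearest to BCL2L11 1558143_a_at were ZFYVE27 (0.0605), USP44 (0.0913) and BAK1 (0.0988). ASNS, asparagine synthetase, averaged 14.04 in H tax and 14.01 in N tax cells, against 11.18 in H and 11.31 in N cells. The profiles share the 12 arrays, so likeness includes what the arrays have in common.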

How the data were processed

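The 18 arrays were hybridised with RNA from MDA-MB-231 cells and, per the methods, read on Affymetrix HG-U133 Plus 2.0 arrays. The authors normalised the probe-level data with GC-RMA (GCRMA in the submitters' processing notes, version not given in the sources used here) and deposited log2 signals of 54675 probe sets. The methods name AffyProbeMiner chip definitions, whereas the deposited table carries standard Affymetrix probe set names. GC-RMA pulls dim probe sets to a common floor near 2.23, so small differences there are compressed. The values have no counts behind them, and the number of arrays limits the precision. Scan dates were not given in the sources used here, so batches were not examined.

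Control probe sets (62) were set aside. Probe sets were named through the platform's gene table: 41097 had 1 symbol, 1801 several and 11777 were not listed. Of 54613 probe sets, 24151 exceeded the study's presence threshold (a log2 signal of 3.14) in every array of at least 1 of the 6 conditions. A single limma model (3.58.1, R 4.3.3) held all 6 conditions (no covariate, 6 residual and 2.28 prior degrees of freedom), and 12 two-sided contrasts were adjusted by Benjamini-Hochberg over all 24151. The fit was tested on simulated data. The study describes biological replicates, and the labels do not say how the cultures were separated.

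Every probe set with the symbol of 1 member alone was reported. Other lists were counted on the probe set with the highest mean of each gene, and up to 4 members past the test, with the largest changes, are named per comparison, together with values of the same genes in other comparisons. The members, lists and tests were chosen with earlier results of these data known. Some listed genes are not reported here. Promoters came from RefSeq (GRCh38.p14) and figures were drawn with matplotlib 3.10.9.

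Alternatives were placing the 6 arrays with conflicting labels by their titles or by their source names, dropping 1 array at a time, blocking on replicate number, removing the presence filter or raising it to 4 times the threshold, quantile normalisation, median centring, a trended and robust variance, and fits of only the arrays compared. Single arrays were dropped only for the comparisons that hold their condition. Leaving N epi replicate 2 out of the whole fit, for the comparisons without N epi cells, was added after the data were seen.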

Additional observations from a re-analysis of the deposited data

Results flagged for a closer look

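Among the genes given above, 4 differences between hypoxia effects passed limma's test of the difference itself, and all of them lay outside the 10 members, of which 0 of 24 probe sets passed. For BNIP3, H epi minus N epi was smaller than H minus N by -2.39 ± 0.21 (SE, adjusted p = 0.00148), and smaller than H tax minus N tax by -2.20 ± 0.21 (adjusted p = 0.00395). For BNIP3L the difference of H epi minus N epi from H minus N was -2.23 ± 0.28 (adjusted p = 0.00782). BCL2L2 differed the other way, by 0.93 ± 0.18 (adjusted p = 0.0318), and this call was lost without any 1 of H epi replicate 1, N epi replicate 2, H replicate 1, H replicate 2, N replicate 1 and N replicate 2 (adjusted p = 0.0549, 0.0725, 0.0612, 0.0725, 0.0869 and 0.128). The cause was not tested for any of them.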

How the results depend on the processing

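Of 91 calls over the member probe sets and comparisons, 60 were kept whichever array was left out. Setting aside the arrays added by source name, 54 were kept under every alternative that tested them. At 4 times the presence threshold only 76 of the 91 calls were tested, and calls not tested there were not counted as lost. The 12 arrays and the dim probe sets limit what can be resolved. In this section, an array was left out only for the comparisons that hold its condition.

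Member probe sets called, with 1 array left out, ranged from 0 to 0 in H against N, from 0 to 5 in H epi against N epi, from 3 to 5 in N tax against N, from 5 to 8 in H tax against H, and from 9 to 18 in N epi against N. They ranged from 0 to 4 and from 0 to 5 when the hypoxia effect with epirubicin was set against that without drug and with paclitaxel. Once the third arrays were placed by their titles, 5 member probe sets were called in H against N, beside 4969 of all 24151 tested. In H tax against N tax 1 was called (1448 over all), and 1 for the hypoxia effect with epirubicin against without drug (2946 over all). Placed by source name, 0 were called in H against N, N tax against N, H tax against H, N epi against N, H epi against H, N epi against N tax and H epi against H tax, where 0 of 24151 probe sets passed in H against N. H against N gave 2 after quantile normalisation (2549 over all 24151) and with only the arrays compared (1920 over all). It also gave 2 at 4 times the presence threshold (2114 over all probe sets passing that level). At 4 times the threshold N tax against N gave 6 (5192 over all probe sets passing that level). Without the presence filter, H epi against N epi gave 1 (474 over all 54613 probe sets), H tax against H 5 (5358) and N epi against N 10 (10153). With only the arrays compared, N epi against N gave 10 (9950 over all 24151) and N epi against N tax 13 (11836 over all).

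Called changes that turned sign did so by source name or median centring. By source name the N tax minus N changes were 0.0225 (BID 204493_at), 0.18 (BID 211725_s_at), 0.0247 (BID 227143_s_at), -0.0219 (BCL2L13) and -0.42 (FBXW7), the H tax minus H changes -0.57 (FBXW7) and -0.0206 (BAK1), and the H epi minus H change of BCL2L2 -0.0754. After median centring DIABLO was 0.0486 in N epi minus N and 0.0196 in N epi minus N tax, and BCL2L13 was 0.17 in H epi minus H. The cause was not tested. Quantile normalisation gave a share of higher calls of 58.2% in N epi against N, 60% in H epi against H, 57.3% in N epi against N tax and 59.2% in H epi against H tax, against 39.9% in H epi against N epi, where it was 25.1% as deposited.

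Of 15 pairs of conditions, 3 had same-numbered deviations correlated above 0.1 (-0.184 to 0.302): H tax and N tax (0.302), N epi and N (0.165), and H and N (0.121). With 2 arrays per condition this cannot show whether the replicate numbers pair the samples. The paper averaged ratios over 3 independent experiments. A replicate block kept 90 of the 91 calls. BCL2L1 212312_at in N tax against N was lost (adjusted p = 0.0622), and N epi against N gave 19 calls in place of 17, with BAX 211833_s_at (0.0343) and BCL2L11 225606_at (0.0396) added.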

Other observations

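The 6 arrays that the labels put in no condition gave the following log2 signals. On MCL1 200797_s_at, the arrays titled H epi and N epi, with H tax and N tax as source names, read 6.65 and 6.91. Those titled H tax and N tax, with H and N as source names, read 13.71 and 13.33, and those titled H and N, with H epi and N epi as source names, read 12.81 and 12.58. These 6 arrays entered no comparison of the report, except as the alternatives named above.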
